A study of Mus musculus with 12 samples.

Results

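The genes lying beside Nfil3 on mouse chromosome 13 were examined in lineage-depleted bone marrow of mice that lack Nfil3, a transcription factor also named E4bp4. The set held 9 genes, Auh, Ror2, Sptlc1, Syk, Diras2, Gadd45g, Nol7, Pak1ip1 and Prxl2c, and 1 array row with no gene name, numbered 10409276, so 10 of the 34760 rows of the deposited array table. A row, or transcript cluster, is the group of probes whose signals are summarised as 1 level. The 9 genes lie within 20 Mb of Nfil3. They were chosen by position, with results of these arrays known; beyond position the basis of the choice is not stated. The difference between the genotypes is therefore treated as used in the choice and given as a description, without a test. Where a gene had more than 1 row, the one with the highest mean was to be taken, and each of the 9 genes had 1 row.

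Each of 12 arrays held RNA of 1 mouse, 6 labelled E4bp4-/- and here called knockout, and 6 labelled E4bp4+/+ and here called wild type. Marrow was crushed from hindlegs, and magnetic depletion took out cells bearing Ter119, GR1, CD11b, B220, CD2 or NK1.1, which leaves a mixture rich in stem and progenitor cells. The strain, the age and sex of the mice and the part of the gene that was deleted are not given in the sources used here. In such a mixture, fewer cells of a type and less RNA per cell cannot be told apart.

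Nfil3 encodes a basic leucine zipper protein that binds short palindromic DNA sites, mostly as a repressor, and is needed for natural killer cells and other innate lymphoid cells. A targeted allele is carried together with the chromosome around it, so in this design an effect of missing Nfil3 protein on a gene beside it and an effect of the altered locus itself cannot be told apart. The genes beside Nfil3 have no shared pathway. They include a receptor and a kinase of cell signalling (Ror2, Syk), metabolic enzymes (Auh, Sptlc1), nucleolar proteins (Nol7, Pak1ip1) and a stress protein (Gadd45g).

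RefSeq promoter sequences of build GRCm38.p6 were matched for 8 of the 9 genes. None was matched for Pak1ip1, whose levels did not overlap between the genotypes. Syk had an additional promoter, which gives 9 promoters in all. The 250 bases before the transcript start are shown for Diras2, Nol7 and Prxl2c, whose levels did not overlap between the genotypes, 5′ to 3′ on the strand of the gene. They lie at chr13:52530837-52531086 (minus strand), chr13:43398126-43398375 (plus strand) and chr13:64312711-64312960 (minus strand). Capitals mark CG dinucleotides.

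Diras2: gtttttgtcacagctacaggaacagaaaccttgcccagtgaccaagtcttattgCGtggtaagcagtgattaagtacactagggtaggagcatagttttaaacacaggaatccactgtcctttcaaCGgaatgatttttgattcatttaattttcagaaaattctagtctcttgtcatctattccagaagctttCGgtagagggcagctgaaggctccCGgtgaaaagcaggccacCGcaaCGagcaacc
Nol7: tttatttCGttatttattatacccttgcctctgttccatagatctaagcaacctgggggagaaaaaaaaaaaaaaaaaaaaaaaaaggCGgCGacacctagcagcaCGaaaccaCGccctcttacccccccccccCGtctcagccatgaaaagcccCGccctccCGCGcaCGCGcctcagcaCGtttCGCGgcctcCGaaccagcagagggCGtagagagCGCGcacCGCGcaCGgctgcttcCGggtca
Prxl2c: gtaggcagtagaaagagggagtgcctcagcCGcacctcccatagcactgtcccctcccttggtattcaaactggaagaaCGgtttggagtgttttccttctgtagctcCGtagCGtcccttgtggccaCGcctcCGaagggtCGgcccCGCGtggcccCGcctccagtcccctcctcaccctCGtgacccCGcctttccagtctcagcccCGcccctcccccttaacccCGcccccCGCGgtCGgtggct

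The Diras2 stretch holds 6 CG dinucleotides, equal to the median of all promoters, and 44.0% G and C. That of Nol7 holds 22, more than in 85.2% of promoters, and that of Prxl2c holds 17, more than in 76.5%. Known target sites of Nfil3 take forms such as TTACGTAA and TTATGTAA. On either strand, TTACGTAA occurs in 0.113% and TTATGTAA in 0.819% of the 32851 promoters of this length, and neither occurs in the 9 promoters of these genes. The wider form TTANGTAA, which covers both, occurs in 2.06% and is also in none of the 9, which says only that these letters are not in these windows.

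The targeted gene was checked first. On the log2 scale of the array, the 6 knockout levels of Nfil3 ran from 6.34 to 6.92 and the wild type levels from 6.94 to 7.66. The difference, knockout minus wild type, was -0.68 ± 0.13 (SE), with a two-sided exact permutation p of 0.00216, the smallest that 924 permutations can give, and a limma adjusted p of 0.14. Knockout replicate 2, at 6.92, had the knockout level nearest to the wild type. Knockout replicate 1 stood apart: Xist, expressed from the inactive X chromosome, was at 6.08 there against 12.1 to 12.65 elsewhere, and Y-linked Eif2s3y at 7.37 against at most 4.13. These are levels of a male on that array and of females on all others, so sex was not balanced between the genotypes. The part of sex in the members' levels was not tested. The mean of knockout replicate 1 over 10 neutrophil granule genes was 9.94, against 7.60 to 8.55 in the other knockout arrays and 7.59 to 8.60 in the wild type. Its mean over 4 monocyte and macrophage genes was 9.35, against at most 8.46. The other knockout arrays differed from the wild type in another marker list: the mean over 5 megakaryocyte genes was 10.84 to 11.12 in those 5 arrays, above all wild type arrays (10.06 to 10.68), and 10.23 in knockout replicate 1. The part of these cells in the members' levels was not tested. Means over stem and progenitor markers were 10.12 to 10.31 in these 5 arrays and 9.99 to 10.29 in the wild type (10.55 in knockout replicate 1). In the same order they were 6.38 to 6.52, 6.36 to 6.55 and 6.70 for NK and T cell markers, 8.86 to 9.08, 8.91 to 9.26 and 9.04 for stroma, and 8.75 to 10.07, 8.53 to 10.33 and 10.58 for basophils and mast cells. Across the array 0 of 29541 rows kept by the filter (0.0%) passed a limma adjusted p of 0.05, and 4391 had an unadjusted p under 0.05. All 10 members were kept, and all of their 120 values lay above the 20th percentile of their array, the level set by the filter.

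Row 10409276 differed most between the genotypes. In the knockout it was at 7.26, 6.12, 6.92, 6.50, 6.59 and 6.73 in replicates 1 to 6. In the wild type it was at 5.49, 5.61, 5.55, 5.65, 5.62 and 5.50. Every knockout array lay above every wild type array, with a gap of 0.47 between the lowest knockout and the highest wild type value. The means were 6.69 ± 0.39 (SD, n = 6) and 5.57 ± 0.068, a difference of 1.12 ± 0.15 log2 (SE) or 2.17-fold. By the width of that gap the row ranked 1 of 29541, and by the size of the difference 12. Among the 9230 kept rows that name no gene, 71 had genotypes that did not overlap (0.769%), and 1, this row, had a gap as wide. The row was picked with this contrast known, so nothing is read from these ranks and counts. Platform annotation gives this row no gene, and its sequence and position were not used here.

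**Figure D1:**
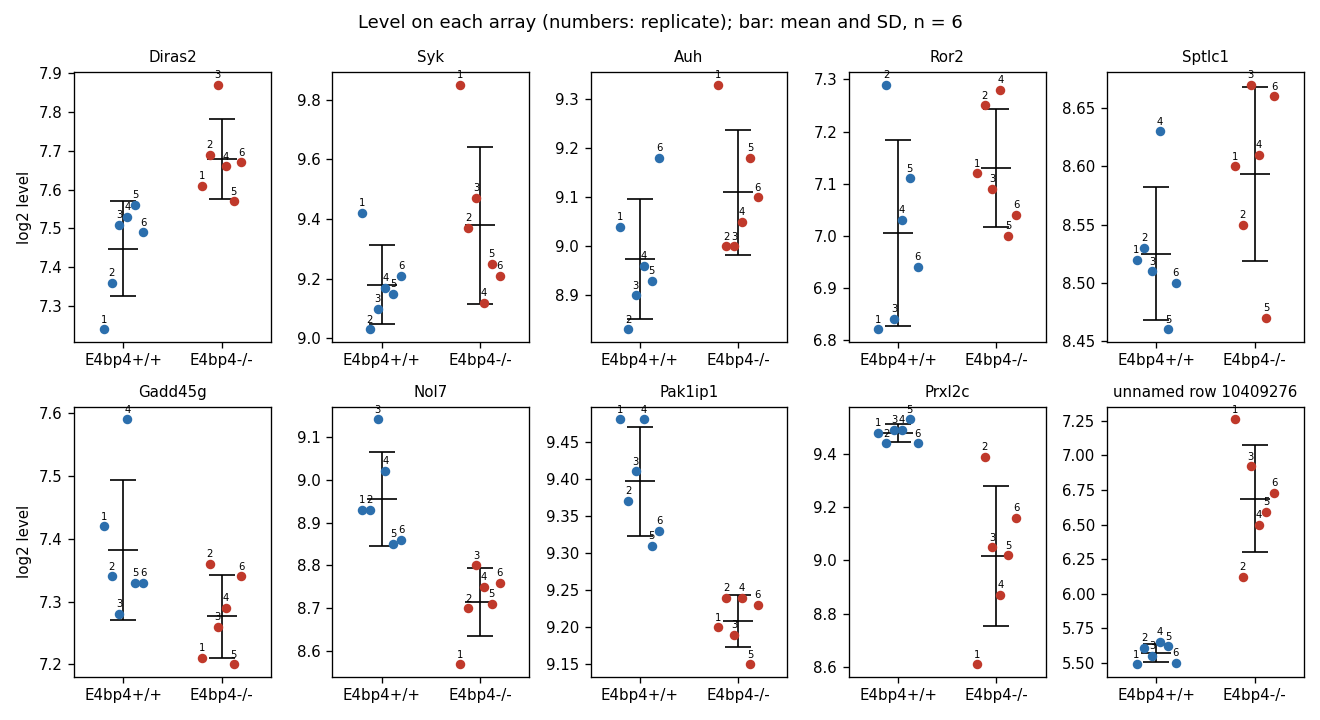
Log2 level of each member on each of the 12 arrays, in a panel of its own scale, for E4bp4+/+ (blue) and E4bp4-/- (red); digits are replicate numbers and bars the mean with SD (n = 6). The genotypes do not overlap in Diras2, Nol7, Pak1ip1, Prxl2c and the unnamed row, and they overlap in the other 5.

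Of the 10 members, 5 had genotypes that did not overlap, 2 of them higher in the knockout and 3 lower. Over all kept rows this share was 1.27%, made up of 0.619% with the knockout higher and 0.65% with it lower. Since the members were picked with this contrast known, nothing is read from their count.

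The 5 members within 1 Mb of Nfil3 had higher means in the knockout, as did 58.8% of all named genes; since the members were picked with this contrast known, nothing is read from their shared direction. Diras2, a small GTPase of the Ras family, lies beyond Auh and Syk, the 2 protein-coding genes between it and Nfil3. Its knockout levels were 7.57 to 7.87 with a median of 7.67, and its wild type levels 7.24 to 7.56 with a median of 7.50. The groups were separated by 0.01 only, between knockout replicate 5 and wild type replicate 5. The difference was 0.23 ± 0.065 log2 (SE).

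Syk is the kinase that carries signals from B cell, Fc and other immunoreceptors. Its levels were 9.12 to 9.85 in the knockout (median 9.31) and 9.03 to 9.42 in the wild type (median 9.16). The highest value, 9.85, was that of knockout replicate 1, the array with the high neutrophil and monocyte marker levels given above, and 2 of 6 knockout arrays exceeded the highest wild type array. The difference was 0.20 ± 0.11 log2 (SE), and 0.103 ± 0.078 without knockout replicate 1. Without both arrays numbered 1, the highest of each genotype, it was 0.151 ± 0.067. The part of neutrophils, monocytes or sex in the Syk level was not tested.

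Auh, nearest to Nfil3 on the side of lower coordinates, encodes an RNA-binding hydratase of leucine breakdown. Its knockout levels ran from 9.0 to 9.33 (median 9.08) and its wild type levels from 8.83 to 9.18 (median 8.95), with only knockout replicate 1 above all wild type arrays. The difference was 0.14 ± 0.070 log2. Ror2, nearest on the other side, is a receptor for Wnt5a. It was at 7.0 to 7.28 (median 7.10) and 6.82 to 7.29 (median 6.98), and no knockout array lay outside the wild type range; the difference was 0.12 ± 0.081. Sptlc1, a subunit of the enzyme that starts sphingolipid synthesis, was at 8.47 to 8.67 (median 8.60) and 8.46 to 8.63 (median 8.51). Its difference was 0.07 ± 0.044, or 0.0264 ± 0.045 after centring each array on its median. The ranges of Auh, Ror2 and Sptlc1 overlapped between the genotypes.

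Gadd45g, Nol7, Pak1ip1 and Prxl2c, which lie farther out, had lower means in the knockout. Gadd45g, a stress-induced protein that acts on the cell cycle and on stress kinases, had knockout levels of 7.20 to 7.36 (median 7.28) and wild type levels of 7.28 to 7.59 (median 7.33), with 3 of 6 knockout arrays below all wild type arrays. The difference was -0.10 ± 0.055 log2, and -0.0594 without wild type replicate 4, the highest array. Nol7, a nucleolar protein with 60 protein-coding genes between it and Nfil3, was at 8.57 to 8.80 (median 8.73) and 8.85 to 9.14 (median 8.93). All 6 knockout arrays lay below all wild type arrays, by at least 0.05, and the difference was -0.24 ± 0.056.

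Pak1ip1, a nucleolar protein of ribosome assembly that also binds the kinase Pak1, lies on the same side, beyond Nol7. Its levels were 9.15 to 9.24 in the knockout (median 9.21) and 9.31 to 9.48 in the wild type (median 9.39). The knockout arrays were all lower, by at least 0.07, and the difference was -0.19 ± 0.040 log2. This was the tightest knockout group of the set, with an SD of 0.033 against 0.076 in the wild type.

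Prxl2c, a peroxiredoxin-like gene, lies on the other side of Nfil3, with 127 protein-coding genes between them. Its knockout levels were 8.61, 9.39, 9.05, 8.87, 9.02 and 9.16 in replicates 1 to 6, and its wild type levels stayed between 9.44 and 9.53. Every knockout array was lower, from knockout replicate 2, which missed the lowest wild type array by 0.05, to knockout replicate 1. The means were 9.01 ± 0.26 (SD) and 9.48 ± 0.035, a difference of -0.46 ± 0.10 log2 (SE), or 1.38-fold. Without knockout replicate 1 the gap was again 0.05, and without knockout replicate 2 it was 0.28.

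The members also differed in how evenly they were changed. The knockout SD was 7.48 times the wild type SD for Prxl2c and 5.71 times for row 10409276, and 5.52 and 4.38 times without knockout replicate 1. A ratio above that of Prxl2c was found in 0.0508% of kept rows, and one above that of row 10409276 in 0.135%. The median ratio was 0.972. Both high ratios had a small wild type SD under them, 0.035 for Prxl2c and 0.068 for row 10409276. Syk had the same knockout SD as Prxl2c, 0.26, with a ratio of 1.96. A tight wild type group also helps to separate the genotypes, the contrast known at the choice, so nothing is read from these shares. The ratio was 0.439 for Pak1ip1, 0.705 for Nol7 and 0.868 for Diras2. Knockout replicate 2 was the knockout array nearest to the wild type in Nfil3, in Prxl2c and in row 10409276, and knockout replicate 1 the one farthest from it in the latter pair.

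**Figure D2:**
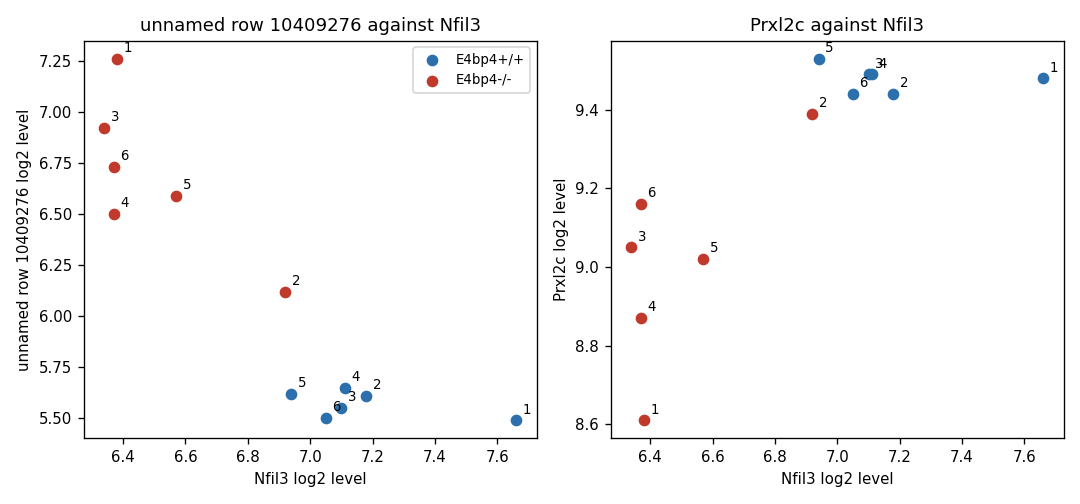
Log2 level of row 10409276 (left) and of Prxl2c (right) against that of Nfil3 on the same array, 6 arrays of each genotype, with replicate numbers beside the points. Knockout replicate 2 lies nearest to the wild type points in both panels, at 6.92 for Nfil3, 6.12 for the unnamed row and 9.39 for Prxl2c.

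Whether the members followed Nfil3 from mouse to mouse was tested within each genotype, a measure the choice of members did not use. Over 20 relations (10 rows, 2 genotypes, 6 arrays each) 0 passed after Benjamini-Hochberg adjustment, and the lowest adjusted p was 0.333 for Pearson's r and 0.514 for Spearman's rho, both from two-sided exact permutation tests. In the wild type Diras2 gave r = -0.93 and rho = -0.77 (exact permutation p = 0.0167 and 0.103), and r = -0.74 without the 2 arrays farthest from the median of Nfil3. Diras2 in the knockout gave only r = -0.18 and rho = -0.37 (exact permutation p = 0.794 and 0.497). The lowest p of rho was that of Sptlc1 in the knockout, with rho = -0.89 (exact permutation p = 0.0333, adjusted 0.514) and r = -0.61. In the knockout row 10409276 gave r = -0.76 and rho = -0.43 (exact permutation p = 0.108 and 0.419, adjusted 0.722 and 0.919). Without the 2 farthest arrays r was 0.17, so that relation rested on those arrays. Prxl2c in the knockout gave r = 0.68 and rho = 0.26 (exact permutation p = 0.181 and 0.658), and r = -0.43 without them.

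The same was done for row 10409276 against the 9 genes, 18 relations in all and chosen after its values were seen, and 0 passed; the lowest adjusted p was 0.471 for r and 0.686 for rho (two-sided exact permutation). Prxl2c gave r = -0.79 in the knockout (exact permutation p = 0.0722, rho = -0.49), where its low arrays had high levels of the unnamed row. Without the 2 arrays farthest from the median of the unnamed row, r was 0.63. With 6 arrays the smallest two-sided exact permutation p is 0.00278, which for a single relation becomes 0.0556 after adjustment over 20 relations and 0.05 over 18. No relation standing alone could therefore get under 0.05, and the counts of 0 say nothing of whether the members followed Nfil3 or the unnamed row.

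The members were then set among all genes around Nfil3, taken by position alone. Of the 10 named genes nearest on each side, 15 had a higher mean in the knockout and 5 a lower one, with a median difference of 0.064 log2. Over all 17807 named genes 58.8% were higher and the median was 0.02. After centring each array on its median, 11 of the 20 were higher and 41.4% of all named genes. Of the 14 among these 20 that are not members, 10 were higher, and 6 (42.9%) after centring, with a median of -0.016. Their differences ran from -0.11 for Cks2, a small partner of cell cycle kinases, to 0.14 for Hrh2, a histamine receptor. Their limma adjusted p-values ran from 0.23 to 0.967. Msx2, a homeobox gene and the other gene within 1 Mb, had means of 5.55 (knockout) and 5.54 (wild type).

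Within 10 Mb there were 158 named genes, 99 higher and 59 lower, with a median of 0.031 log2; after median centring 70 were higher, 88 lower and the median -0.0088. The genotypes did not overlap for 6 of them (3.80%), and within 20 Mb for 10 of 262 (3.82%), against 257 of 17544 named genes elsewhere (1.46%). Members make up 4 of those 10. The others were Cap2 and Pdlim7, higher in the knockout, and Cks2, Hnrnpk, Zfp367 and Med10, lower. Cks2 and Hnrnpk were each read from the brightest row and have 2 other rows, whose overlap is not given here. In the rows used, the genotypes were separated by only 0.01 for Cks2 and 0.02 for Hnrnpk. Cap2, an actin regulator, had the largest difference of the 10, at 0.88 ± 0.13, and Prxl2c the next. Higher and lower genes without overlap lay on both sides of Nfil3.

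**Figure D3:**
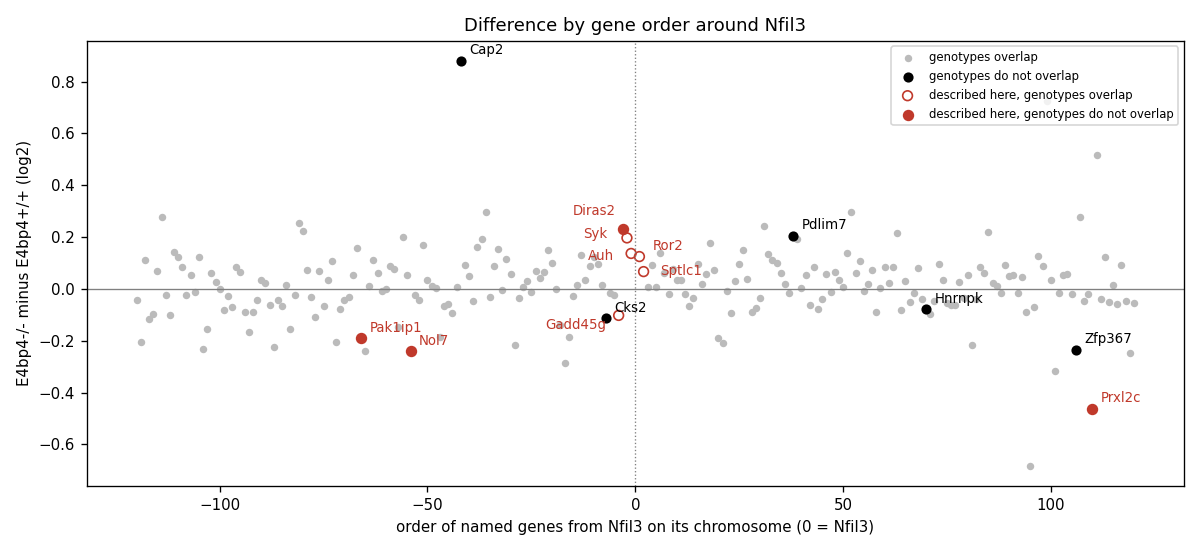
Difference in log2 level, E4bp4-/- minus E4bp4+/+, for the 120 named genes nearest to Nfil3 on each side, in chromosome order with Nfil3 at 0. Red marks members, filled where the genotypes do not overlap, and black marks other genes without overlap; Med10 lies beyond the plotted range.

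Partners of the members were read from 8 lists, with the members themselves left out. Over all kept rows 8.47% of rows had an unadjusted limma p under 0.05 with the knockout higher and 6.39% with it lower; 0 genes of any list passed the adjusted threshold. Partners of Syk in immunoreceptor signalling had higher means in 16 of 17 cases, with a median of 0.15 log2, against 0.02 over all named genes. The list's median was 0.042, with 13 higher, without knockout replicate 1, the array with high monocyte and neutrophil markers. Without both arrays numbered 1 the median was 0.088, with 16 of 17 higher. At the unadjusted threshold 2 were higher: Sla, an adaptor that dampens receptor signalling (0.40 ± 0.11), and Cd79a, a chain of the B cell receptor (0.33 ± 0.11, from a low level of 5.09). Cblb, a ubiquitin ligase, was at 0.08 ± 0.037 and Plcg2, a phospholipase, at 0.27 ± 0.16. The mean over 7 B cell precursor markers was 6.71 in knockout replicate 1, 6.35 to 6.68 in the other knockout arrays and 6.31 to 6.54 in the wild type; its part in these values was not tested.

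Peroxiredoxins and thioredoxin partners, listed beside Prxl2c, had lower means in 10 of 11 cases, with a median of -0.059 log2. Prdx2, the abundant peroxiredoxin of red cells, was at -0.17 ± 0.051 and Prdx1 at -0.08 ± 0.034, the 2 with an unadjusted p under 0.05. Each of these 2 genes has 1 other row, less bright and not used here. The rows used are numbered 10356999 for Prdx2 and 10436048 for Prdx1. Whether they read these genes or similar sequences elsewhere was not checked. Without knockout replicate 1, 8 of the 11 were lower, and without both arrays numbered 1, 10 were. The mean over 6 erythroid markers was 10.83 in knockout replicate 1, 10.87 to 11.27 in the other knockout arrays and 11.05 to 11.44 in the wild type, and its part was not tested.

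Ribosome assembly factors, listed beside Nol7 and Pak1ip1, were higher in 14 of 34 cases and lower in 20, with a median of -0.0074 log2, against 58.8% of all named genes higher. The split turned with the scaling: 19 of 34 were higher after quantile normalisation (55.1% of all named genes) and 7 of 34 after median centring (41.4%). Npm1, a chaperone of the nucleolus, was at -0.19 ± 0.073 and Nol11, a factor of ribosomal RNA transcription, at -0.15 ± 0.061, both with an unadjusted p under 0.05. Genes of the stress kinase pathway, listed with Gadd45g, had lower means in 10 of 12 cases (median -0.065), among them the kinases Map2k3 (-0.10 ± 0.039) and Map2k4 (-0.12 ± 0.052), which also had an unadjusted p under 0.05.

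Partners of Ror2 in Wnt signalling had higher means in 13 of 18 cases, with a median of 0.066 log2, or 0.026 after median centring. Fzd2 and Fzd4, Wnt receptors named for their low p in this list, were at 0.15 ± 0.046 and 0.11 ± 0.035. Their genotypes did not overlap, which held for 1.27% of all kept rows, but the gaps were only 0.01 and 0.02. Both were at low levels, with means of 5.75 and 5.55. Vangl2, of planar cell polarity, was at 0.18 ± 0.074. Ceramide synthesis partners of Sptlc1 were at a median of 0.027 (10 of 17 higher), with Degs2, a sphingolipid desaturase, at 0.24 ± 0.072 and Cers2, a ceramide synthase, at -0.09 ± 0.039. Leucine degradation partners of Auh were at 0.024 (6 of 11 higher), with Dld, a dehydrogenase subunit, at -0.10 ± 0.047. Small GTPases related to Diras2 were at 0.022 (8 of 13 higher), with Rasd2 at 0.17 ± 0.065 and Rerg at -0.29 ± 0.13. After median centring the medians of these last 3 lists were -0.013, -0.016 and -0.018.

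Last, each member was compared with 17807 named genes for likeness of pattern over the 12 arrays, with the mean of each genotype taken off, as a description. The genes named are the highest of 17807 values from only 12 arrays. A high r is therefore in part a product of the search, and no shared function is read from it. Syk was most like Appl1, Gbe1 and Wdfy4, with Pearson's r of 0.99, 0.98 and 0.98, and 0.98, 0.95 and 0.96 without knockout replicate 1. Nol7 was most like Uggt2, Nap1l4 and Cox17 (0.96, 0.93 and 0.92). Auh was most like Rab5b, Arrdc1 and Mettl7a1 (0.96, 0.92 and 0.90). Diras2 was most like Fmr1, Usp40 and 2410002F23Rik (0.92, 0.90 and 0.90), Pak1ip1 most like Opa3, Yipf7 and Lypla2 (0.91, 0.89 and 0.89). Ror2 was most like Sectm1a, Masp1 and Acp4 (0.93, 0.93 and 0.91), Sptlc1 most like A930018P22Rik, Tekt1 and Cacna2d2 (0.92, 0.86 and 0.86), and Gadd45g most like Olfr738, Cyp2c66 and LTO1 (0.94, 0.90 and 0.89). Prxl2c was most like Nkx6-2, Mfsd4b1 and Hs6st1, with r of 0.95, 0.94 and 0.91, or 0.89, 0.87 and 0.80 without knockout replicate 1. Row 10409276 was most like Apod, Acp2 and Zbtb32 (0.91, 0.90 and 0.89, or 0.80, 0.79 and 0.84 without that array). No member was among the 3 genes most like another member.

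**Figure D4:**
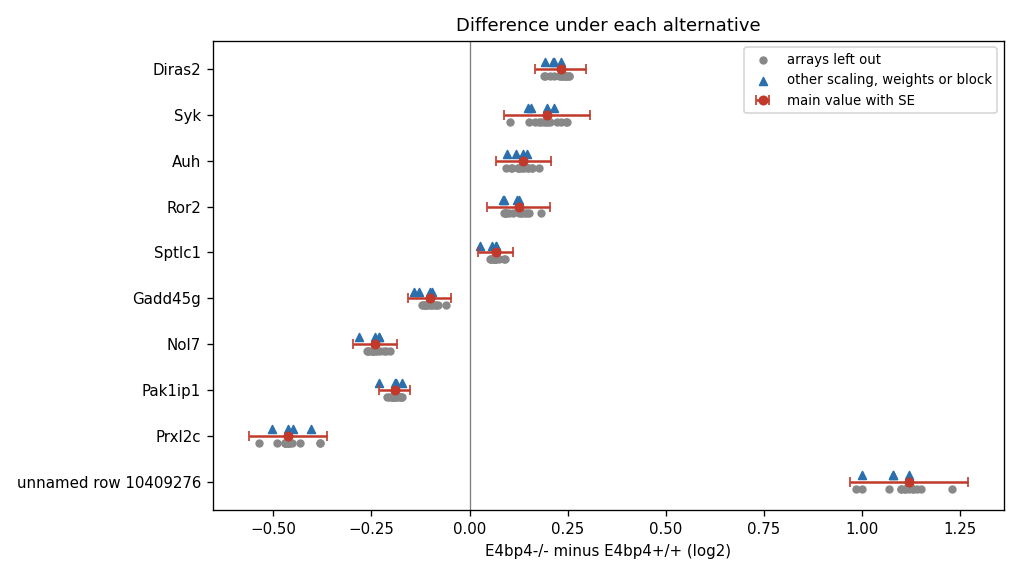
Difference in log2 level, E4bp4-/- minus E4bp4+/+, for each member, with its SE (red), with arrays left out (grey) and under other scalings, array weights or the replicate block (blue). Each member keeps its side of 0 in all 17 alternatives.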

How the data were processed

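Total RNA of lineage-depleted marrow from 12 mice was measured on Mouse Gene 1.0 ST GeneChips. Per the labels, the authors summarised probe signals by RMA16 in GeneSpring GX; the deposited numbers run from 3.18 to 14.33 and were read as log2. This summary brings the arrays close to each other, which would mask a change shared by most genes. Array medians still ran from 6.54 to 6.62 in the knockout and from 6.50 to 6.56 in the wild type. Centring on them changed the share of named genes higher in the knockout from 58.8% to 41.4%. Genes were named from the platform annotation (21640 rows name 1 gene); RefSeq, assembly GRCm38.p6, gave gene order and promoters.

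Rows reaching the 20th percentile of their array on at least 1 array were kept (29541 of 34760). Knockout and wild type were compared over the whole table with limma 3.58.1 in R 4.3.3 (lmFit, eBayes, Benjamini-Hochberg), which also gave each SE; the step was tested on simulated data. Where a gene had several rows, the brightest was used. Named besides the members were Nfil3, neighbours by position, up to 4 genes of lowest p per partner list and the 3 genes most like each member; genes without overlap within 20 Mb were named after their values were seen. The members, lists and alternatives were chosen with earlier results of these data known. As alternatives, each array was left out in turn, and the scaling, filter, array weights, variance trend and a block for the replicate number were varied; leaving out both arrays numbered 1 was added after seeing the data. The number of arrays, 6 per genotype, limits the precision.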

Additional observations from a re-analysis of the deposited data

Results flagged for a closer look

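Among the members and Nfil3, 22 groups of 6 values were searched for an array far from the rest, where chance gives such a gap in about 1 of 20 groups. The only one found was wild type replicate 1 for Nfil3, at 7.66, with the next array at 7.18 and a gap of 0.675 of the range. No array of any member stood apart by this measure.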

How the results depend on the processing

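Each of the 10 members kept its direction under all 17 alternatives run for it, and moved by less than the replicate SD pooled over both genotypes, though for Pak1ip1, Prxl2c and row 10409276 by more than the SD of the tighter genotype. Values moved by over 1.5 times for Syk without knockout replicate 1 (0.103 in place of 0.197), Gadd45g without wild type replicate 4 (-0.0594 in place of -0.102) and Sptlc1 after median centring (0.0264 in place of 0.0666). No member gene has another row to try. The count of transcript clusters past an adjusted p of 0.05 was 5 with array weights (row 10409276, Cap2, Ginm1, Gpr141b and a row without a single gene name) and 0 under the other filters, scalings, the variance trend and the replicate block. With 1 array left out it ran from 0 to 4: 4 without knockout replicate 1 (row 10409276, Cap2, Gpr141b and a row without a single gene name), 1 without knockout replicate 2 (row 10409276) and 1 without wild type replicate 2 (Trgv1). For row 10409276 this is the contrast it was chosen on. The Nfil3 difference lay on the same side of the threshold in all alternatives. Replicate numbers are shared between the genotypes. Same-numbered arrays deviated together by correlations of only -0.033 to 0.46, the highest for the arrays numbered 1. Of 12 arrays, 4 correlated best with their own number, so same-numbered arrays were not taken as pairs. With the replicate block row 10409276 differed by 1.12 ± 0.15, and no call changed. The block lowered the SE of Syk from 0.11 to 0.076, of Auh from 0.07 to 0.054 and of Ror2 from 0.081 to 0.065. It left those of Pak1ip1 and Prxl2c as they were. The correlations with Nfil3 without the 2 farthest arrays rest on 4 arrays and cannot pass. A level near background understates a difference, which bears on row 10409276 in the wild type.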
